A study of Mus musculus with 8 samples.

Results

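The Hox genes encode homeodomain transcription factors and lie in 4 clusters in the mouse genome, HoxA on chromosome 6, HoxB on chromosome 11, HoxC on chromosome 15 and HoxD on chromosome 2. Their chromatin accessibility was described from ATAC-seq peaks, that is, from stretches where a transposase could reach the DNA and left many sequenced insertions. The members were 38 listed Hox genes out of 21938 protein-coding genes of the annotation, 10 in HoxA, 10 in HoxB, 9 in HoxC and 9 in HoxD. Peaks were collected over the span of each cluster, from the first to the last listed gene, and over the 100 kb to each side. The spans were chr6:52162417-52260880 for HoxA, chr11:96194316-96368256 for HoxB, chr15:102921103-103036852 for HoxC and chr2:74668310-74765142 for HoxD (mm10). They added up to 485 kb, and to 1280 kb with the flanks.

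Within a cluster the genes are numbered by paralogue group, so that genes with the same number in different clusters derive from a common ancestral gene. Low-numbered genes act in the anterior part of the embryo and high-numbered genes in its posterior part, and in embryonic stem cells the clusters are classic targets of Polycomb repression. Fibroblasts keep a Hox expression pattern that reflects the place in the body from which they were taken. Anterior here means paralogue groups 1 to 8 (22 genes) and posterior means groups 9 to 13 (16 genes).

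The 8 libraries fell into 4 groups of 2. Mouse embryonic fibroblasts (MEFs) were wild type, untreated and of the C57BL/6J-OG2 strain, which carries a green fluorescent reporter driven by Oct4 sequence. OSKM day 5 and OSKM day 10 were such MEFs at day 5 and day 10 after infection with retroviruses for Oct4, Sox2, Klf4 and Myc, together with a FLAG control vector, in embryonic stem cell medium with vitamin C. Embryonic stem cells (ESCs) were wild type and untreated, with replicate 1 labelled C57Bl6J and replicate 2 C57BL/6J-OG2. The labels place ESCs on a feeder layer of fibroblasts, whereas the methods describe gelatin and 2i/L medium. MEFs are a primary culture from embryos, and the body level the cells came from is not given. Infected cultures can hold cells at different stages.

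The authors deposited 1 peak list per group, so no spread between replicates was available for any value and no test between groups was possible. The MEF list held 56514 peaks, the day 5 list 36219, the day 10 list 35226 and the ESC list 48486, and they covered between 0.923% and 1.72% of the genome. The number of reads behind them was not given. A longer list can come from deeper libraries, so shares for all protein-coding genes and values from lists cut to 35226 peaks each by score are given beside the Hox values. Of 6 fibroblast markers, 6 had a peak at their start in MEFs, 5 at each OSKM day and 4 in ESCs, with Thy1 in MEFs alone. Of 5 pluripotency markers, 2 had a start peak in MEFs, 1 at each OSKM day and 5 in ESCs, with Nanog, Zfp42 and Dppa4 in ESCs alone. Intervals given for shares are 95% Wilson intervals, cover counting error only and treat genes as independent, which neighbours in a cluster are not.

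Sequence is shown for 2 promoters and 2 regions under the peaks that held a match to the joint PBX-HOX site, at which Hox proteins bind DNA with their PBX partners. The site was searched on both strands as TGATTAAT, TGATTGAT and TGATTTAT. RefSeq promoter windows (GRCm38.p6) were found for 22 of the 38 genes, 24 windows in all, and a match lay in 8.33% of them and in 2.39% of all 32851 promoter windows of the same length. The 250 bases before the start of Hoxa2 (chr6:52164832-52165081, minus strand) and of Hoxd11 (chr2:74682073-74682322, plus strand) follow in the direction of transcription, with the match in capitals.
Hoxa2: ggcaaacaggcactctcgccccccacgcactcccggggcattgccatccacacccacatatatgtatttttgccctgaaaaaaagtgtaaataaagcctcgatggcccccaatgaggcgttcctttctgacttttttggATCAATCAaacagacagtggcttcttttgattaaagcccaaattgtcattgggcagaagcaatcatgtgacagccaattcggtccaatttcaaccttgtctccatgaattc
Hoxd11: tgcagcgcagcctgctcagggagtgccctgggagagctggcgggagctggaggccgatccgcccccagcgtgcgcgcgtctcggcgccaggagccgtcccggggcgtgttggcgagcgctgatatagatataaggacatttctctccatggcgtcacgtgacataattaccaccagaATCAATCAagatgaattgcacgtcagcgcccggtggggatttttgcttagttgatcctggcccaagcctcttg
The match began 111 bases before the start of Hoxa2 and 73 bases before that of Hoxd11, on the strand opposite to the gene in both. The Hoxa2 match lay inside the day 10 peak, and the Hoxd11 match inside the day 10 and the ESC peak.

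Outside these promoters, a match in each of 2 further named regions is shown with the 25 bases to each side. The Hoxd9 start region (chr2:74698833-74698890, plus strand) had the most peak bases of the HoxD span, and the other lies in a Hoxb3 intron (chr11:96333613-96333670, plus strand) and was found at day 5 alone. The last sequence is a match to the retinoic acid element, a direct repeat of a short site with 5 bases between the copies (chr11:96341211-96341277, plus strand). It was the 1 such match in the 65 regions of the 4 spans and was chosen after the search. Searched whole, 1.54% of these regions held such a match. The share was 0.999% of all regions and 1.57% of all regions found in both MEFs and ESCs, so it was not particular to the Hox spans.
Hoxd9 region: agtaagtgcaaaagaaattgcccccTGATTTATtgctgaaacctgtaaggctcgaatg
Hoxb3 intron region: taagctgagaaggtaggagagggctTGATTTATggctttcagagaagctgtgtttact
Retinoic acid element region: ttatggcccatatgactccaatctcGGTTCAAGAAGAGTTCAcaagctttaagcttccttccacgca
The Hoxd9 match and the retinoic acid element were each covered by a MEF peak alone. Retinoic acid is a known inducer of Hox genes, and the region of that match overlapped Hoxb3 and the gene model Gm11536. A match is a string of letters and no measurement of binding.

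Peaks were denser over the Hox clusters than over the genome in every list, most of all in MEFs and at day 10. In MEFs 49 peaks covered 45.5 kb of the 4 spans, or 9.39% of their bases, against 1.72% of the genome. At day 5 there were 22 peaks and 10.3 kb, or 2.12% against 0.923%. At day 10, with a list of nearly the same length as that of day 5, there were 35 peaks and 25.1 kb, or 5.18% against 1.03%. ESCs had 33 peaks and 18.3 kb, or 3.78% against 1.26%. The covered share was thus 5.45 times that of the genome in MEFs, 2.3 times at day 5, 5.02 times at day 10 and 3.01 times in ESCs. The genome share takes no account of how close together the Hox genes lie. Around starts the order was the reverse. Within 1 kb of a start, peaks covered 517 bp on average at Hox genes and 684 bp at all protein-coding genes in MEFs. These means were 130 and 465 bp at day 5, 446 and 575 bp at day 10, and 298 and 516 bp in ESCs. In bulk libraries a site open in fewer cells and a site less open in each cell cannot be told apart.

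**Figure D1:**
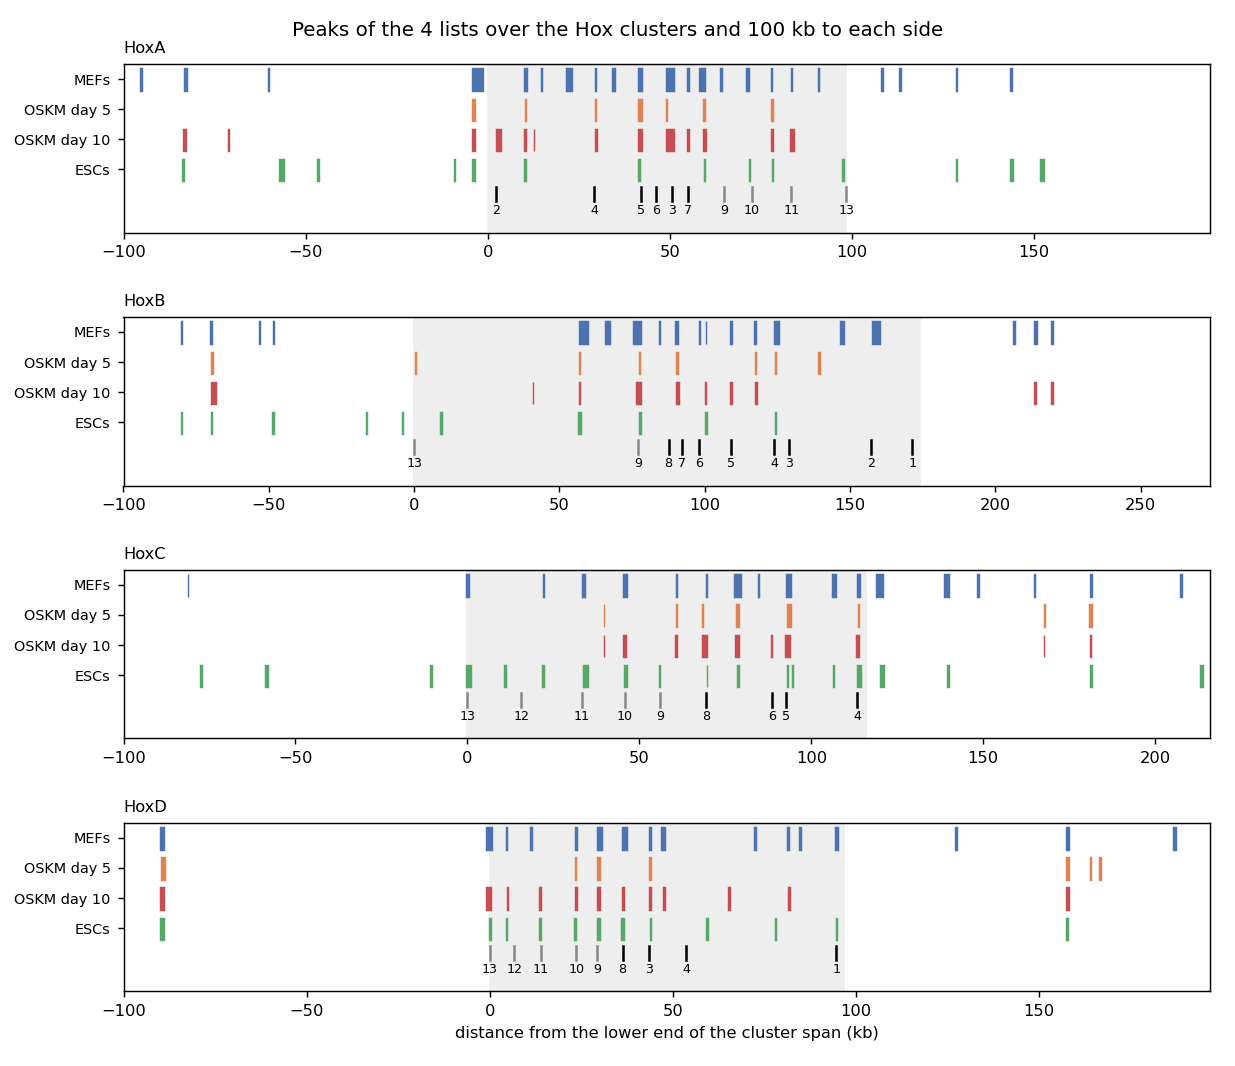
Peaks (bars, drawn to scale) of the 4 lists along each cluster, with distance from the lower end of the span in kb on the horizontal axis, the span shaded, and the start of each listed gene as a tick numbered by paralogue group (black anterior, grey posterior). The day 5 row is sparse in all 4 spans, with 6 peaks in HoxA, 7 in HoxB, 6 in HoxC and 3 in HoxD.

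The clusters did not follow the same course. HoxA went from 14 peaks (11.5% covered) in MEFs to 6 (2.9%) at day 5 and 10 (8.35%) at day 10, and had 6 (2.51%) in ESCs. HoxB held 12 MEF peaks (9.51%), 7 day 5 peaks (1.64%), 7 day 10 peaks (2.99%) and 5 ESC peaks (1.82%), so its covered share stayed low at day 10. HoxC had 11, 6, 8 and 12 peaks and 7.65%, 2.77%, 5.82% and 6.8% covered in the same order. HoxD had 12, 3, 10 and 10 peaks and 9.08%, 1.43%, 5.14% and 4.98% covered. ESCs were therefore close to MEFs in HoxC by both measures and well below them in HoxA and HoxB. The 8 flanks, which hold neighbouring genes, were 2.75% covered in MEFs, 0.661% on day 5, 1.04% on day 10 and 1.89% in ESCs, that is 1.6, 0.717, 1.01 and 1.51 times the genome. The dense stretch of day 10 peaks was in the spans and not beside them.

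**Figure D2:**
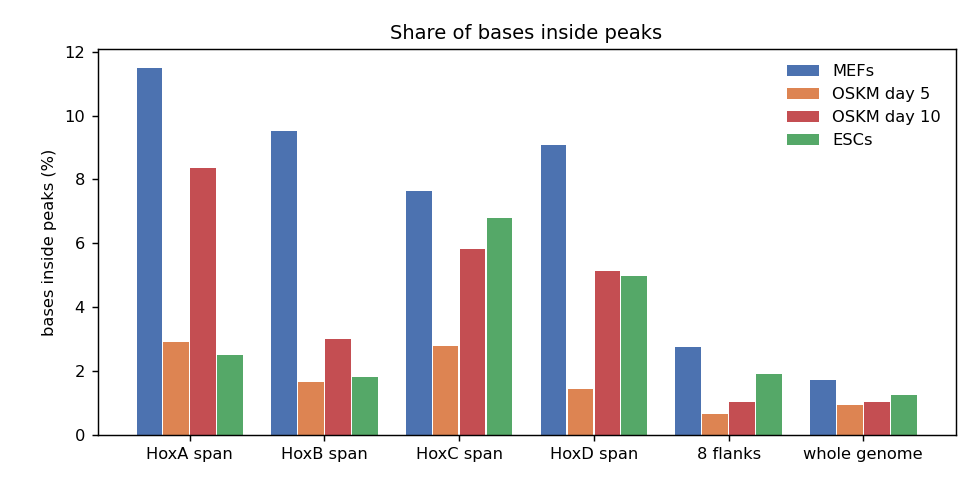
Bars give the percentage of bases inside peaks for each cluster span, for the 8 flanks of 100 kb together and for the whole genome, by list. Day 10 stands above day 5 in each span, from 2.9% to 8.35% in HoxA and from 1.43% to 5.14% in HoxD, while the genome differs less between these 2 lists, from 0.923% to 1.03%.

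Peaks over the Hox clusters were weak ones. The fold enrichment of a peak over background had a median of 2.53 for the 49 Hox peaks in MEFs, 3.0 for the 22 at day 5, 2.63 for the 35 at day 10 and 3.05 for the 33 in ESCs. Peaks at the starts of all protein-coding genes had medians of 3.82, 3.88, 3.63 and 3.78 in the same order. Of the Hox peaks, 47 of 49, 21 of 22, 33 of 35 and 26 of 33 lay below the median of their own list. The highest fold enrichment in the spans was 3.59 in MEFs, 4.14 on day 5, 3.93 on day 10 and 4.12 in ESCs. The day 5 peak lay between Hoxb5 and Hoxb4, the day 10 peak near the Hoxa4 start and the ESC peak near the Hoxb4 start. Scores of Hox peaks had medians of 30 in MEFs, 28.5 on day 5, 26 on day 10 and 27 in ESCs, where the medians of the whole lists were 47, 46, 43 and 39 and the lowest score was 10. Cutting the lists to equal length by score therefore removed many of them. The cut kept peaks from a score of 36 in MEFs, 15 on day 5 and 26 in ESCs, and left the day 10 list whole, with scores from 10. A score depends on depth as well as on enrichment, so lists of equal length can still differ in depth. Around the 4 clusters, flanks included, 75 peaks in MEFs became 33, 30 at day 5 became 26, 45 at day 10 stayed 45 and 55 in ESCs became 28. These numbers come from different lowest scores and give no ranking of the lists.

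**Figure D3:**
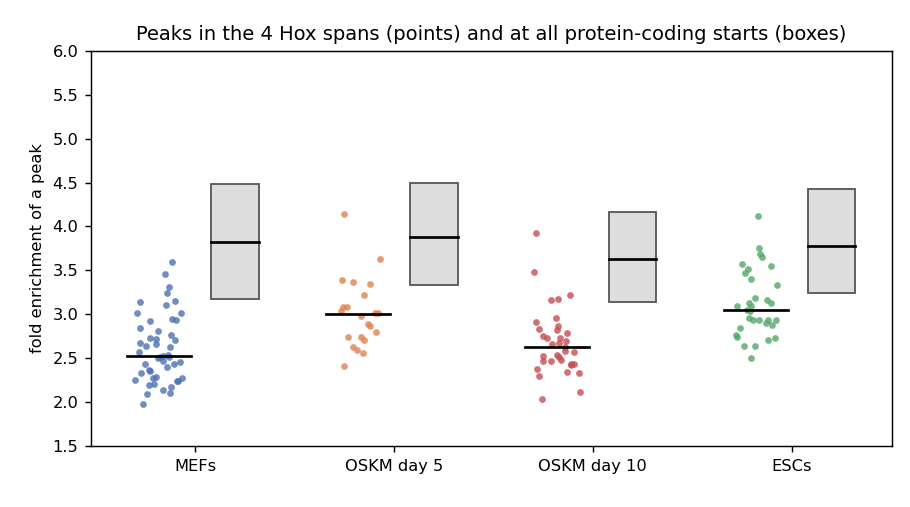
Each point is the fold enrichment of 1 peak in the Hox spans, with a line at the median, and each box shows the quartiles and median over peaks at all protein-coding starts in the same list. The Hox medians of 2.53 to 3.05 lie below the lower edge of the box in each list.

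Of the 38 Hox genes, 24 had a peak within 1 kb of their start in MEFs (63.2%, interval 47.3% to 76.6%), near the 60.9% of all protein-coding genes. At day 5 there were 10 (26.3%, 15.0% to 42.0%) against 53.9% of all genes. At day 10 there were 19 (50.0%, 34.8% to 65.2%) against 56.6%, and in ESCs 19 (50.0%) against 58.0%. Day 5 was the list in which the interval of the Hox share lay below the share of all genes. With lists of equal length the Hox genes with a start peak numbered 7 in MEFs, 7 on day 5, 19 on day 10 and 12 in ESCs, against 54.8%, 53.3%, 56.6% and 51.1% of all protein-coding genes. Day 10 had more than day 5 in both counts. The equal-length counts come from different lowest scores, 15 on day 5 and 10 on day 10, and so give no ranking. The MEF number fell with a lowest score of 36, above the median of 30 of the Hox peaks. A start window of 5 kb instead of 1 kb gave 33 genes in MEFs (86.8%, against 68.1% of all genes), 19 on day 5 (50.0%, against 59.6%), 26 on day 10 (68.4%, against 62.0%) and 28 in ESCs (73.7%, against 66.1%). With that window the Hox share lay below that of all genes at day 5 alone.

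**Figure D4:**
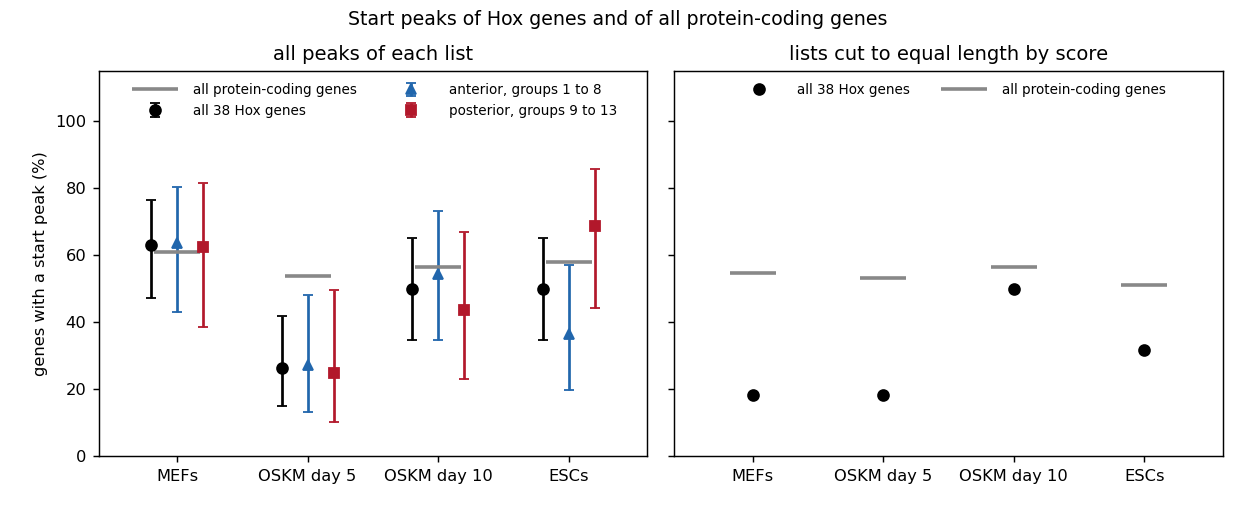
The left panel gives the percentage of genes with a start peak by list for all, anterior and posterior Hox genes, with 95% Wilson intervals, and for all protein-coding genes (grey lines). The right panel repeats it with the lists cut to equal length, where the Hox genes number 7, 7, 19 and 12 of 38.

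Following the 24 genes with a MEF start peak, 9 had one on day 5 (37.5%), 16 on day 10 (66.7%) and 16 in ESCs (66.7%). Of all protein-coding genes with a MEF start peak, 87.0%, 90.6% and 89.2% had one in these lists. The MEF start peaks of Hox genes were mostly weak, and 23 of the 24 fell in the lowest 25% of MEF start peaks by fold enrichment (1.65 to 3.2). Within that range, which was looked at after the fold enrichments were seen, 8, 15 and 15 of the 23 Hox genes had a start peak in the day 5, day 10 and ESC list, against 66.4%, 75.2% and 76.0% of all genes in it. Of the 10 Hox genes with a day 5 start peak, 8 had one at day 10, against 97.5% of all genes. Of the 28 without one at day 5, 11 had one at day 10 (39.3%), against 8.8% of all genes. Of the 14 without one in MEFs, 3 had one in ESCs (21.4%), against 9.48%.

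**Figure D5:**
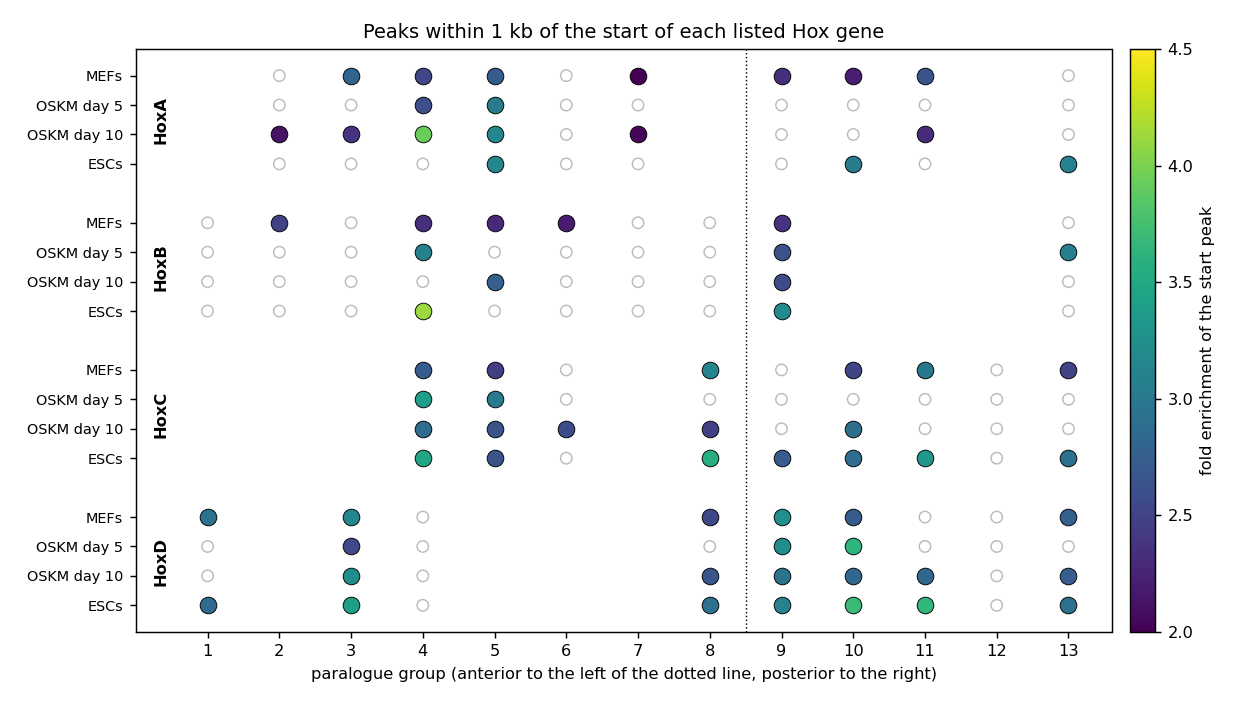
Each row is 1 list in 1 cluster and each column a paralogue group; a filled circle is a gene with a peak within 1 kb of its start, coloured by fold enrichment, an open circle a listed gene without a start peak, and a blank no listed gene. Filled circles at day 5 number 10, and 7 genes are filled in all 4 rows of their cluster.

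A start peak was present in all 4 lists for 7 genes (18.4%, against 49.3% of all protein-coding genes), Hoxa5, Hoxb9, Hoxc4, Hoxc5, Hoxd3, Hoxd9 and Hoxd10. Hoxa5, which patterns the neck and the airways, had fold enrichments of 2.72 in MEFs, 3.04 on day 5, 3.16 on day 10 and 3.16 in ESCs. Its peaks were 1152, 1017, 978 and 733 bp wide, so it was similar in the 3 lists other than ESCs and narrower there. Hoxd10, a gene of limb and lumbar patterning, had 2.71, 3.63, 2.83 and 3.69, with day 5 and ESCs the higher ones. Hoxd9 had 3.24, 3.22, 2.96 and 3.1, with little between the lists. Hoxb9 kept a start peak throughout, but its width was 2590 bp in MEFs, 492 bp on day 5, 1875 bp on day 10 and 737 bp in ESCs. The fold enrichments in that order were 2.37, 2.63, 2.57 and 3.19, so the widest peak had the lowest enrichment.

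Another 8 genes had no start peak in any list (21.1%, against 34.5% of all protein-coding genes), Hoxa6, Hoxb1, Hoxb3, Hoxb7, Hoxb8, Hoxc12, Hoxd4 and Hoxd12. Hoxb1, which specifies a hindbrain segment, lay farthest from any peak, with the nearest at 11161 bp in MEFs, 31901 bp at day 5, 41866 bp at day 10 and 46959 bp in ESCs. Hoxb7 was close to the limit, with MEF, day 5 and day 10 peaks at 1384, 1363 and 1286 bp and none nearer than 7927 bp in ESCs. For Hoxd4 another annotated start had a peak in all 4 lists, and for Hoxb3 in MEFs alone. Just inside the 1 kb limit were the MEF peaks of Hoxa10 (811 bp) and Hoxa9 (655 bp) and the ESC peak of Hoxa13 (669 bp). Just outside it was the day 5 peak of Hoxc8, at 1002 bp.

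The 11 genes whose start had a day 10 but no day 5 peak were Hoxa2, Hoxa3, Hoxa7, Hoxa11, Hoxb5, Hoxc6, Hoxc8, Hoxc10, Hoxd8, Hoxd11 and Hoxd13. All but Hoxa2, Hoxc6 and Hoxd11 also had one in MEFs. For Hoxa7 and Hoxc6 another annotated start had a peak in all 4 lists, so their absence at day 5 holds for the principal start. Hoxd13, the most posterior HoxD gene and a gene of digit formation, had peaks of 1560 bp (2.76) in MEFs, 1307 bp (2.73) at day 10 and 484 bp (2.94) in ESCs, and its nearest day 5 peak was 23221 bp away. Hoxa11, a gene of the forearm and the uterus, had 485 bp (2.66) in MEFs and 1118 bp (2.3) at day 10, with the nearest day 5 peak at 5031 bp and the nearest ESC peak at 4975 bp. Hoxb5 had 786 bp (2.28) in MEFs and 862 bp (2.75) at day 10, and no peak within 8242 bp at day 5. For the 8 genes with both, the MEF and the day 10 peak overlapped in position.

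Hoxa3 was a special case of position. Its principal annotated start lies between Hoxa6 and Hoxa7, past Hoxa4 and Hoxa5. The region over it (chr6:52211476-52213503) had the most peak bases in the HoxA span, with 2018 bp in MEFs, 331 bp at day 5 and 2000 bp at day 10 and no ESC peak. The day 5 peak ended 1309 bp from the start and so did not count. Hoxa2, which patterns the second pharyngeal arch, had a start peak at day 10 alone, a wide one of 1283 bp with a fold enrichment of 2.12, among the lowest of that list in the spans. Its nearest MEF peak was 3547 bp away and its nearest ESC peak 5848 bp.

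The reverse, a day 5 start peak missing from the day 10 list, held for Hoxb4 and Hoxb13. Hoxb4, which can expand blood stem cells, had a MEF peak of 1756 bp (2.35), a day 5 peak of 246 bp (3.08) and an ESC peak of 184 bp (4.12), and none within 6091 bp at day 10. Hoxb13, a posterior gene known from the prostate and the tail, had 1 peak of 276 bp (3.08) at day 5, 270 bp from its start, and no start peak in the other lists. At lists of equal length both genes kept the day 5 peak.

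MEFs and ESCs shared 16 genes with a start peak. The 8 found in MEFs and not in ESCs all lay in HoxA or HoxB (Hoxa3, Hoxa4, Hoxa7, Hoxa9, Hoxa11, Hoxb2, Hoxb5 and Hoxb6). The 3 found in ESCs and not in MEFs were posterior genes, Hoxa13, Hoxc9 and Hoxd11. Hoxa4 had 2.53 in MEFs, 2.59 on day 5 and 3.93 on day 10, the last being the strongest day 10 peak in the HoxA span, and its nearest ESC peak was 11919 bp away. Hoxd11 had 2.82 at day 10 and 3.65 in ESCs, the latter the highest-scoring ESC peak of the HoxD span. Hoxa13, a gene of the hand and the urogenital tract, had an ESC peak of 488 bp (3.1), and Hoxc9, a gene of the thoracic level, one of 432 bp (2.71) over its start. Another annotated start of Hoxd11 did have a MEF peak, and another start of Hoxa7 an ESC peak. At equal list length the ESC peaks of Hoxa13 and Hoxc9 and the MEF peaks of Hoxa4, Hoxa7, Hoxa11, Hoxb2, Hoxb5 and Hoxb6 were lost, which left Hoxa3 and Hoxa9 of the 8 in MEFs.

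The posterior genes had the higher share with a start peak in ESCs however a start peak was counted, though the size of the gap varied. In MEFs and at day 10 the posterior share was the lower, by little in MEFs with the 1 kb window. At day 5 the direction depended on the count. Of the 22 anterior genes, 14 had a start peak in MEFs (63.6%, 43.0% to 80.3%), 6 on day 5 (27.3%, 13.2% to 48.2%), 12 at day 10 (54.5%, 34.7% to 73.1%) and 8 in ESCs (36.4%, 19.7% to 57.0%). Of the 16 posterior genes, 10 had one in MEFs (62.5%, 38.6% to 81.5%), 4 at day 5 (25.0%, 10.2% to 49.5%), 7 at day 10 (43.8%, 23.1% to 66.8%) and 11 in ESCs (68.8%, 44.4% to 85.8%). The 2 intervals overlapped in every list. The ESC gap of 32.4 percentage points was 21.0 at equal list length and 7.95 when a peak anywhere over the gene was counted. The day 5 difference of -2.27 points (posterior minus anterior) was -32.4 with a window of 5 kb, as large as the ESC gap and in the other direction, -18.8 over the gene and 0.568 at equal list length. At day 10 the difference was -10.8, and with other settings it lay between -13.6 and -1.7. By cluster, ESC start peaks were found at 4 of 5 posterior and 3 of 4 anterior HoxC genes, with the same counts in HoxD. In HoxA they were found at 2 of 4 posterior and 1 of 6 anterior genes, and in HoxB at 1 of 2 and 1 of 8. The parts thus differed little within HoxC and within HoxD, and more within HoxA and HoxB, where few posterior genes were counted. Day 10 start peaks were found at 5 of 6 anterior HoxA genes and 4 of 4 anterior HoxC genes but at 1 of 8 anterior HoxB genes.

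Covered bases were counted over the same parts. The anterior parts of the 4 spans, 269 kb together, were 11.1% covered in MEFs, 2.78% on day 5, 6.34% on day 10 and 2.56% in ESCs. The posterior parts, 216 kb, were 7.32%, 1.3%, 3.75% and 5.3% covered. Pooled over the clusters, the anterior share was the higher in MEFs and at both OSKM days, and the posterior share was the higher in ESCs. HoxD differed from the pooled order, with the posterior part the more covered in every list, at 10.2% against 8.48% in MEFs, 2.89% against 0.685% on day 5, 7.8% against 3.78% on day 10 and 7.84% against 3.52% in ESCs. In HoxB the parts were nearly equal at day 10, with 3.02% posterior and 2.96% anterior. Anterior HoxA had the largest share at day 10 (10.9%, after 15.3% in MEFs and 3.9% at day 5) and only 2.05% in ESCs. In posterior HoxC the order was different, with 4.69% in MEFs, 0.721% on day 5, 2.25% on day 10 and 8.12% in ESCs. The highest-scoring ESC peak of the HoxC span lay there, between Hoxc13 and Hoxc12 (chr15:102931616-102932208, 593 bp, 3.75), in none of the other lists.

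By paralogue group, group 10 (Hoxa10, Hoxc10 and Hoxd10) had a start peak at all 3 genes in MEFs and in ESCs, at 1 at day 5 and at 2 at day 10. For Hoxa10 another annotated start had a peak in all 4 lists, so its absence at both OSKM days holds for the principal start. Group 5 had 3 of 3 in MEFs and at day 10 and 2 of 3 at day 5 and in ESCs. Group 12 (Hoxc12 and Hoxd12) had none in any list, and group 8 had none at day 5 and 2 of 3 in each other list. Group 4 was the group with the most day 5 start peaks, 3 of 4.

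Peaks of the 4 lists that lay within 400 bp of each other were merged into regions, of which 65 touched the spans. Regions in MEFs and not ESCs made up 24 of them (36.9%, interval 26.2% to 49.1%) against 36.4% of all 101701 merged regions. Regions in both MEFs and ESCs made up 25 (38.5%, 27.6% to 50.6%) against 19.1%, regions in ESCs and not MEFs 8 (12.3%, 6.37% to 22.5%) against 28.4%, and regions found at day 5 or day 10 alone 8 (12.3%) against 16.1%. The regions common to MEFs and ESCs had a peak at day 5 in 14 of 25 and at day 10 in 18 of 25, whereas 76.0% and 79.9% of all common regions did. Of the 24 regions in MEFs and not ESCs, 5 had a peak at day 5 and 10 at day 10, against 14.2% and 14.8% of all such regions. These classes were sensitive to list length, and at equal length they held 11, 6, 11 and 21 regions in the order given.

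Of the 8 regions in ESCs and not MEFs, 5 lay in the posterior parts, beside 26 of all 65 regions of the spans. Besides those at Hoxa13, Hoxc9, Hoxd11 and between Hoxc13 and Hoxc12, they lay between Hoxb13 and Hoxb9 (chr11:96203080-96204023, intergenic), in an exon of Hoxc5 (chr15:103015560-103015625), in exons and introns near Hoxd4 (chr2:74727413-74727809) and in an exon of Hoxd3 or the overlapping gene model Gm28230 (chr2:74746161-74746537). Their fold enrichments were between 2.64 and 3.75, and 1 of the 8, at Hoxd11, also had a day 10 peak. The Hoxc5 exon region was 66 bp wide, with the same score (19) and fold enrichment (2.64) as the ESC peak at chr15:103014076-103014432. Both may be pieces of a single replicate 1 peak cut by the intersection, and the latter lies in a region with a MEF peak. With a merge distance of 1000 bp, 7 regions were in ESCs and not MEFs. Of the 8 regions found at the OSKM days alone, 5 were at day 10 alone, 2 at day 5 alone and 1 at both. The last lay between Hoxc11 and Hoxc10 (chr15:102960706-102960852, 147 bp). The strongest was in a Hoxd3 intron at day 10 (chr2:74733468-74733929, 3.48).

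Of the 14 regions of the spans found in MEFs alone, 4 were over 1 kb wide, 2 in anterior HoxB, 1 in posterior HoxB and 1 in anterior HoxA. The widest, a region of 2700 bp over exon bases of Hoxb2 and of the antisense transcript Hoxb3os (chr11:96351892-96354591, fold enrichment 2.47), lay in anterior HoxB, as did the region of 1210 bp with the retinoic acid element at Hoxb3 (chr11:96340974-96342183, 2.24). The posterior HoxB region was 1848 bp wide, over the gene model Gm53 (chr11:96260027-96261874, 3.01). The HoxA region of 1796 bp overlapped Hoxa3, Hoxaas3 and other gene models (chr6:52183922-52185717, 2.43). At equal list length, with a lowest MEF score of 36, the region at Gm53 (score 49) was the 1 of the 4 that remained. The strongest MEF peak of the HoxC span was in a Hoxc4 intron (chr15:103027120-103028365, 3.46), and a narrower ESC peak of 351 bp (3.52) lay inside it, with none at either OSKM day.

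In GC and CpG content the span regions were near regions common to MEFs and ESCs. In the 200 bp around the middle of the widest peak, GC was 57.2% with 11.1 CpG on average in Hox regions, 58.7% with 11.8 in all common regions and 47.8% with 4.35 in all regions. The AP-1 site (TGACTCA or TGAGTCA), bound by factors active in fibroblasts, was found in 3.08% of the 65 Hox windows and 11.4% of all windows. In windows of common regions it was found in 4.15%, near the Hox share. The octamer ATGCAAAT, bound by OCT4, was found in 0 of 65 and 2.19%, with 0.987% in common regions. The SOX site (CCATTGT or CCTTTGT) was found in 4.62% and 10.1%, with 5.51% in common regions. The KLF site (CCACACCC, CCACGCCC, CCCCACCC or CCCCGCCC) was found in 13.8% and 11.1%, with 20.2% in common regions. Matches to MEIS TGACAG were in 3.08% and 13.6%, with 10.8% in common regions, and to PBX-HOX in 4.62% and 2.3%, with 0.982% in common regions. The CTCF motif, searched as a strict string, was in 0 of 65 windows, 1.12% of all windows and 1.79% of windows of common regions. In whole regions it was in 0 of 65, against 2.95% of all regions and 6.64% of common regions. A string this rare cannot show that the Hox regions lack CTCF sites. The retinoic acid element was in 0 Hox windows and 0.258% of all windows. Searching whole regions gave PBX-HOX in 16.9% of Hox regions, 8.04% of all regions and 7.64% of common regions, and the Hox regions with a match then numbered 11. KLF was then in 47.7% of Hox regions, above the 31.2% of all regions and below the 65.4% of common regions. AP-1 was in 7.69%, 27.3% and 23.3% in the same order, and SOX in 24.6%, 29.0% and 31.3%.

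Other transcripts of the clusters were followed by a list of 14. Of these, 3 had a MEF start peak, 2 a day 5, 3 a day 10 and 4 an ESC start peak. The shares of all protein-coding genes were 60.9%, 53.9%, 56.6% and 58.0%, but most of the 14 are non-coding. Hotairm1, a long non-coding RNA at the anterior end of HoxA, and Mir615, a microRNA inside Hoxc5, had one in all 4 lists. Haglr, which shares its start region with Hoxd1, had one in MEFs and ESCs, Hoxaas3 at day 10 alone and Evx1, a homeobox gene beyond Hoxa13, in ESCs alone. Hotair, Hottip, Hoxb5os, Evx2 and the microRNAs Mir10a, Mir10b, Mir196a-1, Mir196a-2 and Mir196b had none within 1 kb in any list.

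Of 19 genes for cofactors and regulators of Hox genes, 14 had a MEF start peak, 11 a day 5, 12 a day 10 and 16 an ESC start peak, beside 60.9%, 53.9%, 56.6% and 58.0% of all protein-coding genes. The DNA-binding partners Pbx2, Pbx3, Pbx4, Meis1, Meis3, Pknox1 and Pknox2 had one in all 4 lists. Meis2 had one in MEFs and at day 10, with the nearest peak at 1286 bp at day 5 and 1151 bp in ESCs. The caudal-type activators Cdx1, Cdx2 and Cdx4 and the ParaHox gene Pdx1 had one in ESCs alone, and Cyp26a1, which degrades retinoic acid, in MEFs alone.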

How the data were processed

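ATAC-seq was measured in 8 libraries, 2 per group. The authors mapped reads to mm10 with Bowtie2 (2.2.0 in the submitters' processing notes), removed low-quality, multiply mapped and mitochondrial reads, and deposited 1 peak list per group, named as an intersection and carrying replicate 1 peak names. The peak caller is not given in the sources used here. Each deposited peak has a score, a fold enrichment (ratio over background), a −log10 p-value and a −log10 q-value. The deposited score equals the last of these multiplied by 10, cut to a whole number, in 176445 of 176445 peaks. Score and fold enrichment may belong to the whole replicate 1 peak where the intersection trimmed it. Columns of other series numbered 0, and depth per library is unknown.

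Genes and starts came from GENCODE mouse M21 (21 chromosomes), sequence from RefSeq GRCm38.p6. The principal start was that of the transcript with the best principal-isoform level, then the longest coding sequence. A start peak overlapped the 1 kb to either side by at least 1 bp. Regions joined peaks within 400 bp. Motif windows were 200 bp. Python 3.11.15, pandas 2.3.3 and scipy 1.17.1 were used, and the overlap code was tested on simulated peaks. Alternatives were other windows, starts and merge distances, the higher-scoring 50% of each list and lists of equal length.

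All 38 genes were accounted for. Other genes came from set lists, of which 1 gene is not reported here. Regions were named where they had the most peak bases or the highest score in a span, or were in ESCs and not MEFs, or at the OSKM days alone, and wide MEF-only regions were named after their values were seen. Members and lists were chosen with earlier results of these data known. No value was tested.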

Additional observations from a re-analysis of the deposited data

How the results depend on the processing

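Hox peaks were weak, so the score of the peaks kept was the choice that moved most values. With the higher-scoring 50% of each list, peaks around the clusters numbered 21, 4, 8 and 11 (MEFs, day 5, day 10, ESCs) and covered 1.88%, 0.192%, 0.467% and 0.538%. Start peaks then numbered 5, 0, 3 and 3 (anterior 4, 0, 3 and 1, posterior 1, 0, 0 and 2), beside 51.4%, 37.0%, 45.2% and 41.9% of all protein-coding genes, and region classes fell to 11 in MEFs and not ESCs, 4 in ESCs and not MEFs, 0 common and 4 at the OSKM days alone. At equal list length, 33 peaks in MEFs and 28 in ESCs covered 2.46% and 1.42%, start peaks numbered 7 and 12 (anterior 5 and 5, posterior 2 and 7), and 11 regions were in MEFs and not ESCs, 6 common and 21 at the OSKM days alone. Taking the spans alone gave 49 and 33 peaks in MEFs and ESCs and 9.39%, 2.12% and 5.18% covered in the MEF, day 5 and day 10 lists.

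At day 5, a start window of 5 kb gave 19 genes, 14 of them anterior, and a peak anywhere over the gene 11 anterior genes. A 5 kb window gave 13 anterior genes in ESCs. With all peaks and the 1 kb window, the posterior minus anterior share, in percentage points, was smaller in size outside ESCs. It moved most at day 5. In MEFs (-1.14) it was -13.6 with 0.5 kb, -9.66 with 5 kb, -8.52 with any annotated start, -11.9 with the higher-scoring 50%, -10.2 at equal length and -2.27 over the gene. At day 5 (-2.27) it was -32.4 with 5 kb, -9.66 with any start, 0.0 with the higher-scoring 50%, -18.8 over the gene and -11.4 with anterior groups 1 to 4, and it changed sign at equal length (0.568). At day 10 (-10.8) it was -1.7 with groups 1 to 4 and between -13.6 and -7.39 in the other settings. In ESCs (32.4) it was 18.8 with any start, 7.95 with the higher-scoring 50%, 21.0 at equal length and 7.95 over the gene. The sign was kept in every setting run in ESCs, in MEFs and at day 10. The causes were not tested.

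Of 160 recomputed values, 90 were counted as unchanged under a wide allowance, 69 as moved and 1 changed sign. Unchanged here included the 33 MEF start peaks with a 5 kb window against 24, and 3.78% against 2.6% covered in ESCs for the spans alone. No paired analysis was possible because each group had 1 list that joined its 2 replicates, and leaving out a replicate could not be run for the same reason. Lists without read numbers limit every value here: a weak site absent from a list was not detected at an unknown depth.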
